A study of Drosophila melanogaster with 15 samples.

Results

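The 532 genes described here lie on the X chromosome of Drosophila melanogaster and carry a CG number in place of a given name. They were counted in larval brains in a table of 8990 genes. A CG number is what the fly genome annotation gives a predicted gene that has not been named for a mutant, a product or a relative. Members were chosen by annotated chromosome and by symbol, with no measured value, and 3 further CG genes of X (CG5162, CG9360 and CG3603) were left out by the same rule. The annotation places 1022 CG genes on X, and those outside the table are not analysed here. All 532 members are annotated as protein-coding, and the sources used here state no function for any of them, so none is given. For comparison, the table holds 1029 X genes with a given name and 2206 CG genes on 2L, 2R, 3L and 3R.

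Brains came from female larvae late in the third and last larval stage. Each library pooled 3 brains, and each of the 5 groups had 3 libraries with the batch labels 4, 5 and 6, collected on different days. CDXX larvae carried C(1)DX, an attached chromosome that joins a pair of X arms, together with a free X, which makes 3 copies of X, and were dissected 8 days after egg laying. CDXY larvae carried C(1)DX with a Y chromosome, which makes 2 copies of X, and were dissected at 5 days. T2L larvae were read as C(2L)SH1/+, a reading by elimination since no label gives it, with 2 copies of X and 3 of the left arm of chromosome 2, and were taken at 8 days. C2L larvae carried the compound arm C(2L)SH1, with 2 copies of X and of 2L, and were taken at 5 days. Oregon is a laboratory strain with 2 copies of X whose age was not given. In CDXX against CDXY the extra X, the missing Y and the later age go together and cannot be told apart. CDXX and T2L have the same stated age, but T2L carries the extra 2L.

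Flies even out the X between the sexes in males, where the male-specific lethal complex, guided by the roX RNAs, raises the output of the lone X. In females the protein Sxl blocks that complex by holding back its subunit msl-2. Copy number alone would give CDXX to CDXY a ratio of 1.5, or 0.585 on the log2 scale, called the 3:2 ratio below. In bulk tissue, more RNA per cell and more cells that make it cannot be told apart.

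Libraries held 22.9 to 28.3 M counts, and 8981 genes were tested, all members among them. Defining markers of brain were present in every group. Their summed level was 1700 to 1820 CPM (counts per M counts of the library) in CDXX and 1800 to 2170 CPM in CDXY, and 0 of 9 were called between these groups. Some markers of other tissues moved with the comparison. Muscle markers summed to 391 to 869 CPM in CDXX against 369 to 415 CPM in CDXY (8 of 12 higher). Hemocyte (blood cell) markers summed to 620 to 3450 CPM in CDXX against 102 to 499 CPM in CDXY (3 of 9 higher). Salivary gland markers summed to 1.17 to 6.71 CPM in CDXX against 58.0 to 78.8 CPM in CDXY (5 of 6 lower). Mhc and Eig71Ee were at 0 in at least 1 library. Fat body markers summed to 242 to 357 CPM in CDXX and 212 to 346 CPM in CDXY (1 of 7 higher), and testis markers to 4.89 to 6.59 CPM against 9.94 to 12.3 CPM (2 of 3 lower), while 0 of 5 gut markers were in the table. The part of these tissues in the results below was not tested.

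Most uncharacterised X genes were higher in CDXX brains than in CDXY brains, by a typical amount somewhat under the 3:2 ratio. Of the 532 members, 304 were higher, 11 were lower and 217 did not pass the test (edgeR quasi-likelihood test, adjusted p under 0.05 over all 8981 genes). Over all genes tested, 23.1% were called higher and 20.8% lower, 43.9% in all. The members' median log2 fold change was 0.475 with quartiles of 0.178 and 0.892, which is 1.39-fold, and 85.7% of members lay above 0. Within batches 4, 5 and 6 the median was 0.517, 0.418 and 0.468 (SD 0.049). Genes off X had a median of −0.077, so the members stood 0.552 above them, or 1.47-fold. X genes with a given name had a median of 0.44 and stood 0.517 above the genes off X, with 594 higher and 27 lower of 1029. CG genes of 2L, 2R, 3L and 3R had a median of −0.055, with 376 higher and 424 lower of 2201.

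**Figure D1:**
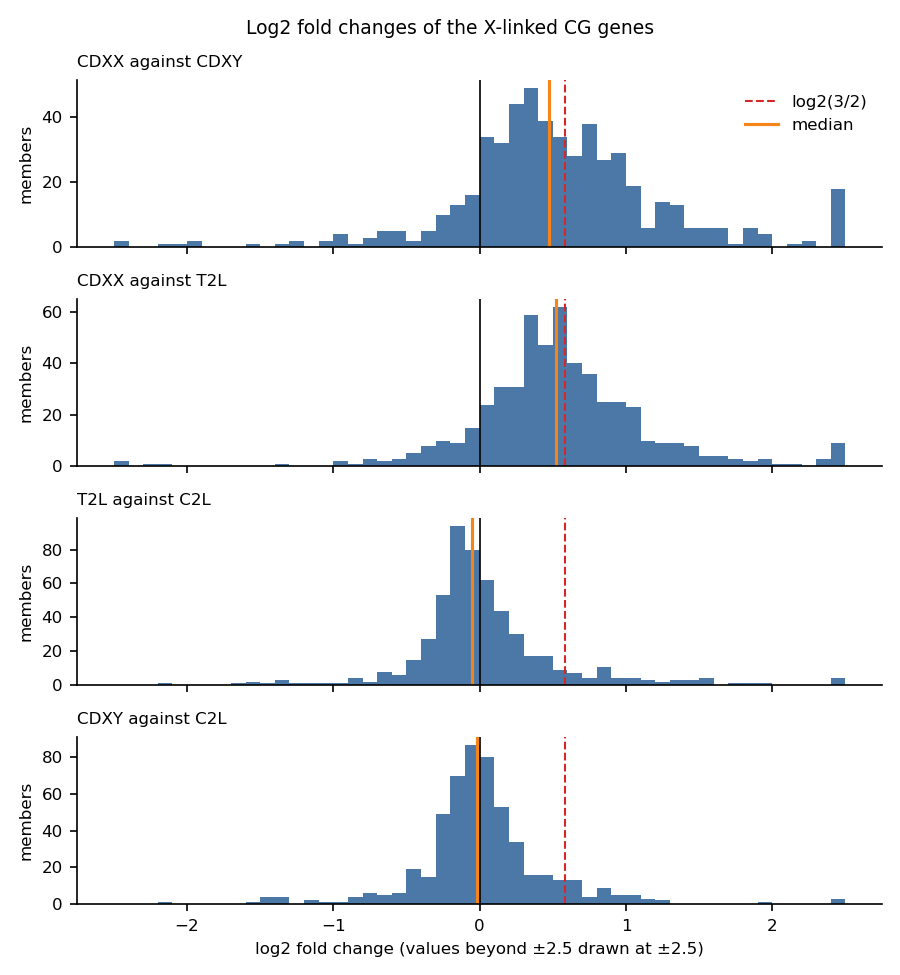
Histograms of the log2 fold change of the 532 uncharacterised X genes in 4 comparisons, with the number of genes on the vertical axis, a solid line at 0, the median in orange and log2(3/2) as a dashed line. The medians are 0.475 for CDXX against CDXY and 0.521 for CDXX against T2L, where X copies differ, and −0.052 for T2L against C2L and −0.018 for CDXY against C2L, where they do not.

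Single libraries told the groups apart for many members. All 3 CDXX libraries lay above all 3 CDXY libraries for 318 members and below them for 26, where 27.0% and 26.5% of all genes did so. Set against each other batch by batch, 370 members were higher in CDXX in 3 of 3 batches (34.0% of all genes) and 41 in 0 of 3, beside 2954 of 8981 genes.

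The members did not share 1 ratio. Those with a log2 fold change within 0.2 of the 3:2 ratio numbered 143, or 26.9%, beside 33.0% of the X genes with a given name. Another 148 members lay between 0 and 0.385, 63 between 0.785 and 1, 102 above 1, and 76 (14.3%) below 0. The members above 1 made up 19.2%, beside 12.3% of the named X genes, and had a median level of 14.1 CPM against 27.0 CPM over all members. Tested against the 3:2 ratio itself, 95 members were above it, 150 were below it and 287 passed in neither direction, where 6.47% of all genes were above and 61.2% below (67.7% called). Of the X genes with a given name, 13.4% were above and 33.7% below, beside 17.9% and 28.2% of the members. The members' split moved with the scaling. With factors taken from genes off X and 2L, 114 members were above and 115 below, so that the share of calls above was 49.8% instead of 38.8%, and the median was 0.543.

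The 4 genes given next were chosen for a log2 fold change within 0.05 of the 3:2 ratio and a small standard error, so their closeness to it is no finding, and they serve to show the level of such genes in each library. CG9281 (FBgn0030672, X, 15705806 to 15710539 in dm6) had 287, 281 and 283 CPM in the CDXX libraries, against 188, 184 and 190 CPM in the CDXY libraries. The groups are far apart relative to their spread, and the log2 fold change was 0.60 ± 0.08 (SE, adjusted p = 0.000251). CG14207 (FBgn0031037, X, 19605199 to 19611413) had 214, 220 and 203 CPM in CDXX libraries, against 141, 140 and 132 CPM in CDXY libraries, a log2 fold change of 0.63 ± 0.07 (adjusted p = 0.00013). The same held for CG6769, with 66.0, 68.3 and 58.8 CPM in CDXX against 41.7, 46.7 and 39.7 CPM in CDXY, at 0.59 ± 0.08. CG10347 had 53.9, 57.9 and 63.2 CPM in CDXX against 38.7, 40.0 and 39.8 CPM in CDXY, at 0.56 ± 0.08. No CDXY library of these genes reached a CDXX library. T2L, C2L and Oregon libraries of CG9281 lay at 162, 186 and 163, at 194, 164 and 172, and at 175, 176 and 193 CPM, which is around the CDXY level. In all, 24 called members lay within 0.05 of the 3:2 ratio. With scaling factors from genes off X and 2L, CG14207 was at 0.70, CG9281 at 0.66 and CG6769 at 0.66, outside that window, and CG10347 at 0.63.

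Other members stayed level although a copy of X was added. Of the 313 members with at least 20 CPM, 37 had a log2 fold change within 0.1 of 0. From these, CG10555, CG8188, CG6961 and CG4004 were picked for the smallest standard errors. Their closeness to 0 and their calls below the 3:2 ratio follow from that choice and are no finding. CG10555 (FBgn0030034, X, 8398940 to 8404516) had 228, 253 and 215 CPM in CDXX libraries, against 226, 255 and 229 CPM in CDXY libraries. The groups overlap, with a log2 fold change of −0.03 ± 0.09 (SE) that was called below the 3:2 ratio (adjusted p = 5.73e-05). CG8188 had 218, 193 and 181 CPM in CDXX against 179, 202 and 179 CPM in CDXY, a log2 fold change of 0.08 ± 0.08. CG6961 (log2 fold change 0.03 ± 0.09) and CG4004 (0.08 ± 0.09) were likewise called below the 3:2 ratio and not called against 0. Against T2L brains, however, 3 of these 4 genes were called higher in CDXX, by 0.25 for CG8188 (adjusted p = 0.0327), 0.24 for CG6961 (adjusted p = 0.0456) and 0.35 for CG4004 (adjusted p = 0.00848), and CG10555 differed by 0.21 (adjusted p = 0.0899). The lowest adjusted p below the 3:2 ratio among members of at least 5 CPM were those of CG17598 (1.33e-05), CG17068 (1.64e-05) and CG11638 (3.47e-05), and the lowest above it those of CG15784 (1.47e-06), CG32687 (9.81e-05) and CG6041 (0.000144). For CG17598 the CDXY level was high, as described below, and CDXX was above T2L by 0.81 (edgeR adjusted p = 2.71e-05). CG17068 had 44.3, 52.8 and 46.5 CPM in CDXX, against 56.0, 56.5 and 49.8 CPM in CDXY. These groups overlap, and the log2 fold change of −0.18 ± 0.10 was not called against 0. CG6041 had 29.9, 25.4 and 24.0 CPM in CDXX, against 9.97, 9.41 and 9.94 CPM in CDXY, a log2 fold change of 1.44 ± 0.14.

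The largest called rises went far past any ratio of copies. CG15784 (FBgn0029766, X, 5429571 to 5432526, plus strand), a gene of 1 exon with 1662 coding bases, had 210, 173 and 260 CPM in the CDXX libraries, against 13.4, 10.6 and 13.6 CPM in the CDXY libraries. CDXX libraries stood apart from all others, since T2L libraries had 52.5, 28.6 and 37.1 CPM, C2L libraries 26.8, 15.1 and 20.5 CPM, and Oregon libraries 25.2, 43.5 and 29.5 CPM. Its log2 fold change was 4.09 ± 0.27 (SE, adjusted p = 4.96e-05) in CDXX against CDXY and 2.45 ± 0.27 (adjusted p = 5.66e-05) in CDXX against T2L. CG1572 (FBgn0030309, X, 11555050 to 11558654, minus strand) had 209, 194 and 258 CPM in CDXX libraries, against 32.2, 15.7 and 51.1 CPM in CDXY libraries. The lowest CDXX library was well above the highest CDXY library, and the log2 fold change was 2.74 ± 0.39 (adjusted p = 0.000511). CG32687 (FBgn0052687, X, 10482028 to 10487205) had 29.2, 26.6 and 37.3 CPM in CDXX, against 3.60, 4.95 and 5.75 CPM in CDXY, a log2 fold change of 2.7 ± 0.32.

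More members completed the 8 largest rises among those of at least 5 CPM without overlap. CG2680 had 31.9, 15.6 and 58.6 CPM in CDXX against 1.40, 2.41 and 4.48 CPM in CDXY, a log2 fold change of 3.68 ± 0.74. CG5254 had 60.2, 37.9 and 82.9 CPM in CDXX against 8.09, 8.51 and 11.7 CPM in CDXY, a log2 fold change of 2.68 ± 0.44. In both genes CDXX batch 5 was the lowest CDXX library and batch 6 the highest. CG3009 rose by 2.56, CG15201 by 2.51 and CG3091 by 2.48 on the log2 scale, and all 8 stayed called in every fit that left out 1 library. Of the 21 members with a log2 fold change over 2, 20 were called, and their median level was 9.0 CPM. CG34417, named after its values were seen, was well above that level, as were CG15784 and CG1572. It has the longest coding sequence of all members, at 15546 bases. It had 592, 600 and 580 CPM in CDXX libraries, against 136, 52.6 and 140 CPM in CDXY libraries (log2 fold change 2.43 ± 0.42, adjusted p = 0.00141).

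**Figure D2:**
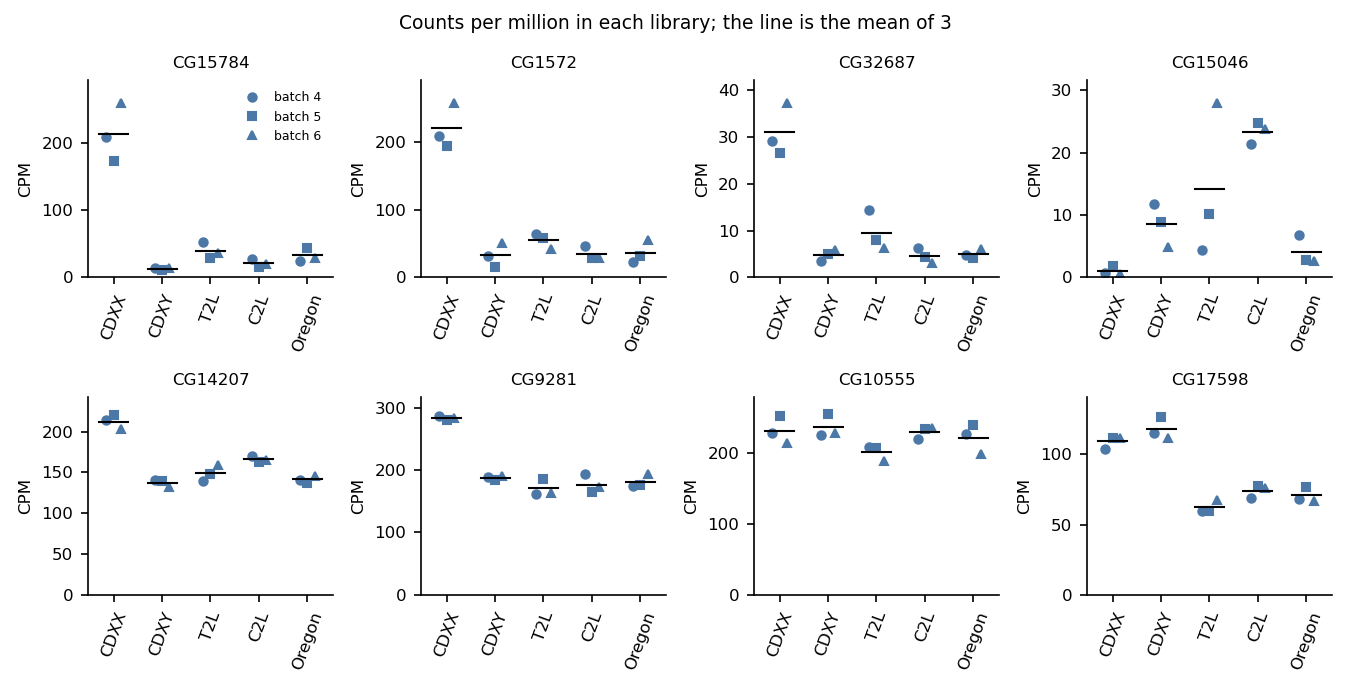
CPM in each of the 15 libraries for 8 uncharacterised X genes, with batch 4 as circles, batch 5 as squares, batch 6 as triangles and a line at the mean of 3. CG15784, CG1572 and CG32687 are high in CDXX, CG15046 is low there, CG14207 and CG9281 sit at the 3:2 ratio, CG10555 is level, and CG17598 is high in CDXX and CDXY alike.

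In CDXX against CDXY 11 members fell, a count that moved with single libraries. It was 7 without CDXY batch 4, 4 without CDXX batch 4, 7 without CDXY batch 5, 19 without CDXX batch 5 and 6 without CDXX batch 6. Against T2L, CDXX was called lower too for CG15046, CG14050 and CG32512, and the other members that fell were not called. CG15046 (FBgn0030927, X, 18487450 to 18489620) had 0.628, 1.77 and 0.528 CPM in CDXX libraries, against 11.8, 8.92 and 4.81 CPM in CDXY libraries. All CDXX libraries were below all CDXY libraries, with a log2 fold change of −3.14 ± 0.67 (SE, adjusted p = 0.00398), and its level elsewhere ranged from 2.67 CPM in an Oregon library to 27.9 CPM in a T2L library. CG32547 (FBgn0052547, X, 18443027 to 18479487) had 12.3, 10.5 and 10.6 CPM in CDXX, against 26.8, 32.4 and 22.3 CPM in CDXY, a log2 fold change of −1.28 ± 0.30 (adjusted p = 0.00573). It lies near CG15046, and its annotated span overlaps other genes. Its means were 12.3 CPM in T2L, 12.9 CPM in Oregon and 22.0 CPM in C2L. CDXX against T2L gave −0.14 and was not called (adjusted p = 0.738). CG11638 had 45.6, 32.9 and 36.0 CPM in CDXX, against 58.2, 66.2 and 56.4 CPM in CDXY, a log2 fold change of −0.66 ± 0.17 (adjusted p = 0.00809).

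Calls of 5 further falls were lost without some single library. CG12539 had 0.549, 4.99 and 1.58 CPM in CDXX against 18.7, 17.4 and 6.82 CPM in CDXY (log2 fold change −2.60, adjusted p = 0.0454). It lost the call with the batch as a block (adjusted p = 0.0642), with scaling factors from genes off X and 2L (0.0507), in a fit of CDXX and CDXY libraries alone (0.0532), and without CDXY batch 4 (0.0945), CDXX batch 4 (0.129), CDXY batch 5 (0.1) or CDXX batch 6 (0.125). CG3823 had 1.96, 4.08 and 1.06 CPM in CDXX against 18.3, 5.36 and 5.42 CPM in CDXY (log2 fold change −2.04, adjusted p = 0.0354). Its CDXY batch 4 library was far above the others, and the call was lost with the block (adjusted p = 0.0675), in a fit of CDXX and CDXY libraries alone (0.0664) and without CDXY batch 4 (log2 fold change −1.22, adjusted p = 0.171), CDXX batch 4 (0.0999) or CDXX batch 6 (0.114). CG11085 (−1.25) lost its call in that fit (adjusted p = 0.0927) and without CDXX batch 4 (0.0504) or CDXY batch 5 (0.0677). CG32512 (−1.04) lost it without CDXX batch 4 (0.0564), and CG1504 (−0.64) without CDXX batch 4 (0.0696), CDXY batch 5 (0.0704) or CDXX batch 6 (0.062). The remaining falls were CG14050 (−0.97), which lies below 5 CPM, CG1924 (−0.55) and CG9686, described below among the most counted genes. For CG14050 and CG1924 the alternatives for this comparison are not reported here.

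The ratio showed no steady trend along X, although a rank correlation would miss shifts confined to some stretches. The rank correlation (Spearman's rho) of the log2 fold change with position was −0.045 over 532 members, and that between neighbouring members was 0.066 over 531 pairs. Both describe genes measured in the same 6 libraries. In bins of 2 Mb, and leaving out the most proximal bin of 13 members, the median for CDXX against CDXY lay between 0.321 (6 to 8 Mb, 46 members) and 0.665 (2 to 4 Mb, 38 members). The other bins had medians of 0.378 to 0.588. The lowest bin moved between batches, with medians of 0.439, 0.191 and 0.323 in batches 4, 5 and 6, and the highest bin had 0.585, 0.587 and 0.527. In these bins the medians for CDXX against T2L were 0.406 and 0.677. Bins of 1 Mb with at least 20 members had CDXX against CDXY medians between 0.265 (18 to 19 Mb) and 0.815 (0 to 1 Mb). The genes nearest the ends were CG17707, at 142731 to 148426, with a log2 fold change of 0.13 ± 0.49, and CG17162, at 23084960 to 23096735, with 0.08 ± 0.34.

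**Figure D3:**
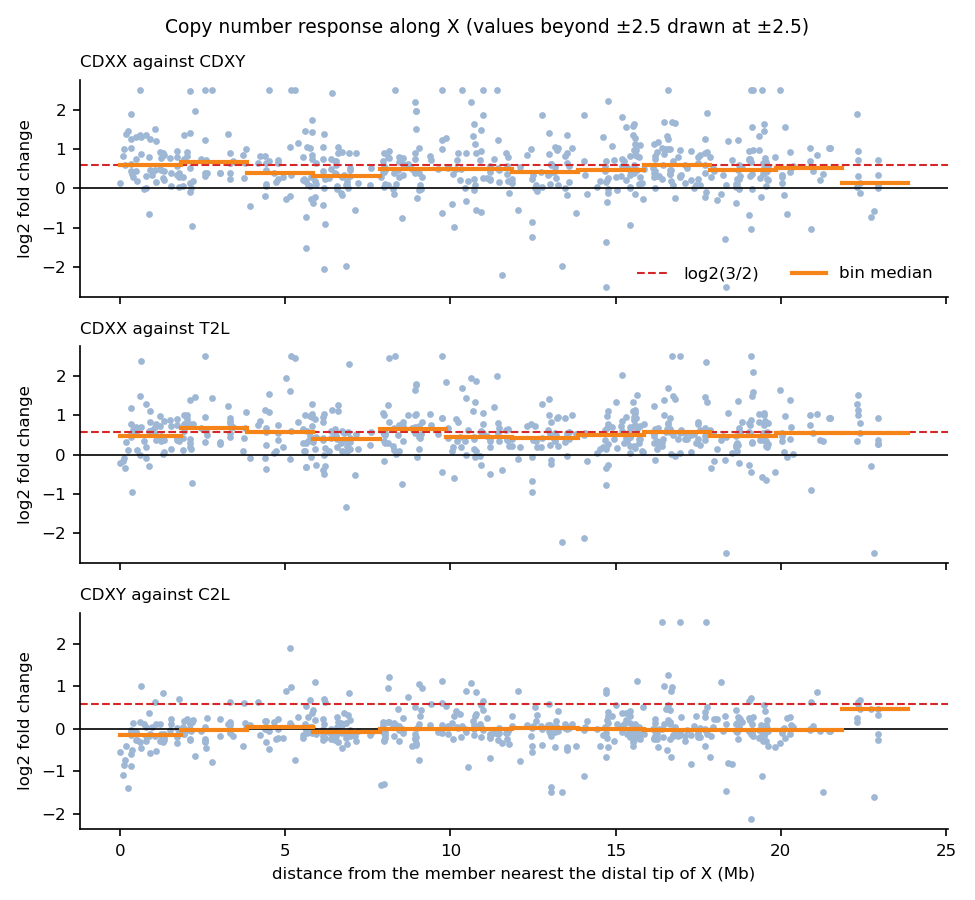
Log2 fold change of each uncharacterised X gene against its distance in Mb from the most distal member, for CDXX against CDXY (top), CDXX against T2L (middle) and CDXY against C2L (bottom), with 2 Mb bin medians in orange and log2(3/2) as a dashed line. Bin medians of the upper plots stay above 0 all along X, and in the lower plot only the most proximal bin, at 0.469, is far from 0.

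Members at both ends of X differed between the stocks themselves. At the distal tip, 0 to 1 Mb, 25 members had a median of 0.815 in CDXX against CDXY but 0.435 in CDXX against T2L, while CDXY stood at −0.252 against C2L. The 45 named X genes of this stretch had medians of 0.477, 0.378 and −0.094 in the same comparisons. The shift was thus smaller in them than in the members. CG3038 (FBgn0040373, X, 243954 to 245856) had 24.6, 25.8 and 25.2 CPM in CDXX and 16.0, 11.8 and 15.2 CPM in CDXY, against 26.3, 30.9 and 27.2 CPM in T2L, 31.2, 23.2 and 36.8 CPM in C2L and 34.7, 24.9 and 36.4 CPM in Oregon. CDXY was the low group. It was thus higher in CDXX than in CDXY (log2 fold change 0.82, adjusted p = 0.00362) but not called against T2L (−0.16, adjusted p = 0.507). CG42376, at 254876 to 255524 and named after its values were seen, ran the same way, with 20.3, 21.3 and 18.4 CPM in CDXX, 8.85, 10.5 and 10.8 CPM in CDXY and 20.1, 24.5 and 19.3 CPM in T2L. CG6659, also named after its values were seen and lying at 18653392 to 18657286, had 83.6, 84.0 and 88.1 CPM in CDXX and 53.2, 51.9 and 49.1 CPM in CDXY, while every T2L, C2L and Oregon library lay between 80.5 and 93.2 CPM. For such genes the CDXX to CDXY ratio rests on a low level in CDXY.

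At the proximal end the CDXY level was high instead. In the bin of 22 to 24 Mb the 13 members had a median of 0.136 in CDXX against CDXY, 0.551 in CDXX against T2L and 0.469 in CDXY against C2L. The raised CDXY values included those of 5 members between 22469981 and 22542024, picked out after their values were seen. CG17598 (FBgn0031194, X, 22534831 to 22540383) had 104, 112 and 112 CPM in CDXX and 115, 127 and 112 CPM in CDXY, against 60.0, 59.6 and 67.7 CPM in T2L, 68.8, 77.5 and 76.1 CPM in C2L, and 68.0, 77.1 and 67.0 CPM in Oregon. Both groups that carry C(1)DX were above all libraries of the other 3. CDXY was above C2L by 0.67 (adjusted p = 0.000483) and above Oregon by 0.74 (adjusted p = 0.000778). CG12576 (FBgn0031190, X, 22474851 to 22482357) had 193, 166 and 220 CPM in CDXX and 117, 122 and 113 CPM in CDXY, against 94.5, 83.8 and 86.5 CPM in T2L, 76.3, 82.3 and 75.1 CPM in C2L, and 74.4, 79.0 and 70.9 CPM in Oregon. Here CDXX lay above CDXY, and CDXY above the rest.

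Of these 5 members, 4 were called higher in CDXY than in C2L, and the values for CG14613, CG14618, CG12576, CG17600 and CG17598 in order along X were 0.64, 0.61, 0.59, 0.47 and 0.67. Against Oregon the same members stood at 0.50, 0.53, 0.65, 0.44 and 0.74, of which CG12576 and CG17598 were called. Neither call held in a fit of CDXY and Oregon libraries alone (adjusted p = 0.0627 and 0.0813). CDXX against T2L gave 1.52, 1.00, 1.13, 0.55 and 0.81, all called, and CDXX against CDXY gave 0.94, 0.30, 0.71, 0.14 and −0.11. Of the named genes between these members, S6kII was higher in CDXY than in C2L by 0.65 (adjusted p = 0.00209). Cp110 was at −0.27, l(1)G0196 at 0.33 and lncRNA:CR43493 at 0.44, none of them called. The 5 members do not mark the edge of the raised values. The named gene wap, distal to them at 22451445 to 22455422, was higher in CDXY by 0.59 against C2L (adjusted p = 0.00068) and by 0.66 against Oregon (adjusted p = 0.000914). Usp2, which reaches from wap to CG14613, was at 0.39 against C2L (adjusted p = 0.0594) and higher by 0.56 against Oregon (adjusted p = 0.0145). Among members farther out, CG14621 on the distal side was at 0.17 in CDXY against C2L, and on the proximal side CG42346 was at 0.48 and CG17168 at −0.12, none of them called.

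**Figure D4:**
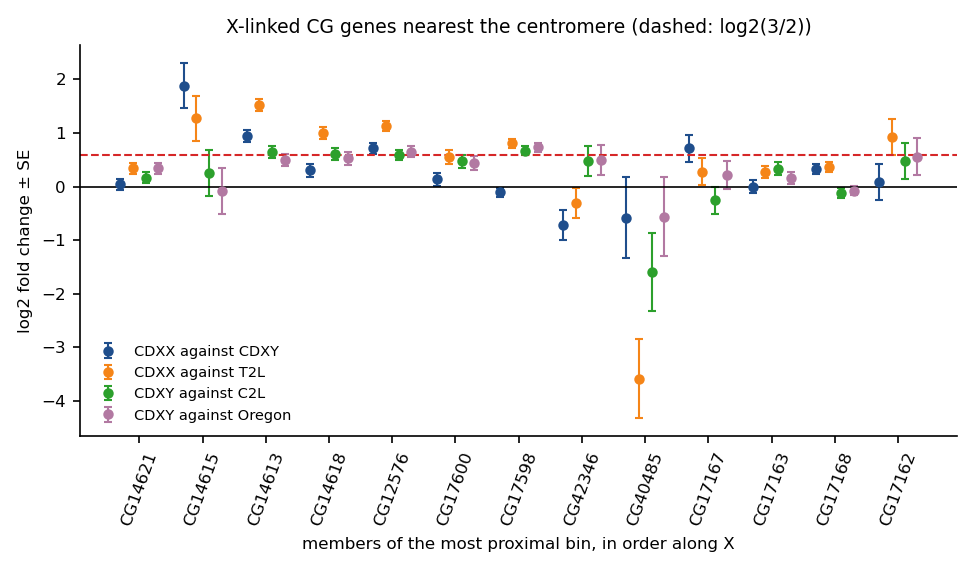
Log2 fold change with its standard error for the 13 uncharacterised X genes of the most proximal bin, in their order along X, in 4 comparisons. From CG14613 to CG17598 the values of CDXY against C2L and against Oregon lie between 0.44 and 0.74, around the dashed line at log2(3/2), although both sides are labelled with 2 copies of X.

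The median ratio was lowest in the class of highest level, as it was for autosomal CG genes. In 5 equal classes of mean CPM, from 1.1 to 465, the members' median log2 fold change for CDXX against CDXY was 0.604, 0.668, 0.579, 0.423 and 0.294 from the lowest class to the highest. Named X genes within the same limits had 0.685, 0.534, 0.616, 0.43 and 0.319. Autosomal CG genes had 0.175, 0.03, −0.09, −0.132 and −0.242. The members thus stood 0.429, 0.638, 0.669, 0.555 and 0.536 above autosomal CG genes of like level, with no fall from class to class that ran through all 5. Against T2L the members' medians were 0.566, 0.56, 0.567, 0.486 and 0.384. By CPM per kb of exon the medians were 0.689, 0.407, 0.525, 0.464 and 0.438, so the lowest value, 0.407, was not in the highest class. In that highest class named X genes had 0.385 and autosomal CG genes −0.177.

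Precision changed along with level. The median standard error of a fold change was 0.383 in the lowest class and 0.126 in the highest, and the interquartile range was 1.01 and 0.595. In the lowest class 33.6% of members were called higher, against 71.7% in the middle class and 46.7% in the highest. Within batches the lowest class had medians of 0.497, 0.499 and 0.338, and the highest 0.368, 0.28 and 0.296. In 10 classes the order was less even, with 0.77 below 2.66 CPM, 0.297 from 2.66 to 7.1 CPM, 0.77 from 7.1 to 12.9 CPM and 0.225 above 105 CPM. Across 532 members measured in the same libraries, rho with mean CPM was −0.189 for the log2 fold change and −0.145 for its distance from the 3:2 ratio.

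**Figure D5:**
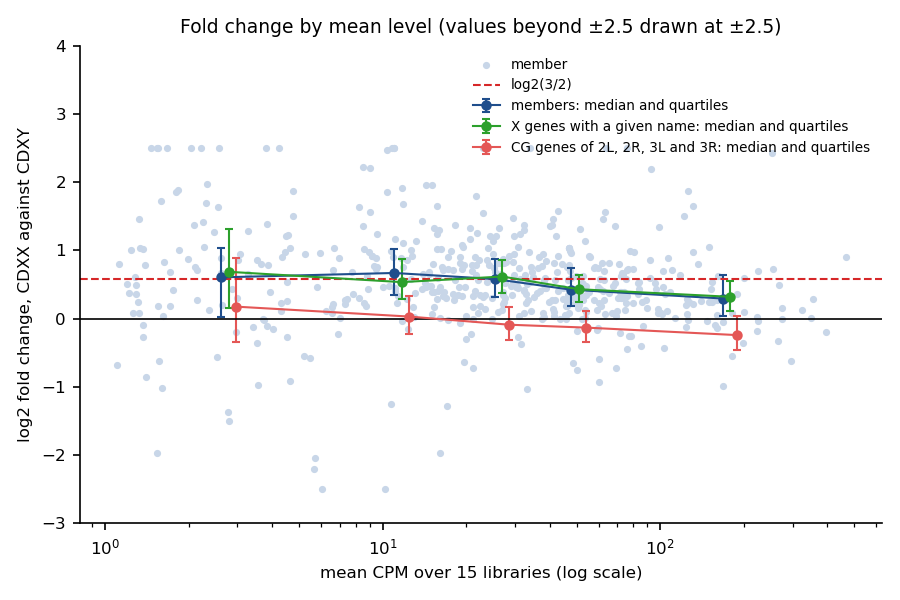
Log2 fold change of CDXX against CDXY (vertical axis) against mean CPM over 15 libraries (horizontal log axis) for the uncharacterised X genes as points, with class medians and quartiles for them, for named X genes and for autosomal CG genes. Members' medians go from 0.604 and 0.668 in the lower classes to 0.294 in the highest, and the autosomal medians from 0.175 to −0.242.

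The 6 members with the most counts had mean levels of 296 to 465 CPM, or 30.5 to 445 CPM per kb of exon. Among them, whether CG3168 and CG9686 were called turned on the settings. CG3168 (FBgn0029896, X, 6720004 to 6739986) had 726, 852 and 643 CPM in CDXX, against 538, 289 and 359 CPM in CDXY. Its groups did not overlap, but the log2 fold change of 0.90 ± 0.35 missed the threshold (adjusted p = 0.0528). CG3168 passed it with the batch as a block (log2 fold change 0.98, adjusted p = 0.00984), with DESeq2 (0.0187), in a fit of CDXX and CDXY libraries alone (0.0349), with scaling factors from genes off X and 2L (0.0409) and without CDXY batch 4 (log2 fold change 1.17, 0.0329). Against T2L, 1.25 ± 0.35 passed in the fit reported throughout (adjusted p = 0.0147). CG3556 had 386, 394 and 331 CPM in CDXX against 381, 506 and 386 CPM in CDXY, groups that overlap, at −0.20 ± 0.16. CG1677 had 386, 349 and 309 CPM in CDXX against 325, 335 and 297 CPM in CDXY, which overlap too, at 0.12 ± 0.09. CG32767 (0.29 ± 0.16) and CG2865 (0.00 ± 0.19) were not called either. CG9686, a gene of 1 exon, fell, with 217, 237 and 166 CPM in CDXX against 351, 352 and 255 CPM in CDXY (log2 fold change −0.63, adjusted p = 0.0379), a call lost without CDXY batch 4 (0.0901), CDXX batch 4 (0.0702), CDXY batch 5 (0.115) or CDXX batch 6 (0.134) and with scaling factors from genes off X and 2L (0.0622).

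The members were shorter and lower in level than named X genes. Their longest coding sequence had a median of 1231.5 bases, against 1698 bases in named X genes, and their median level was 27.0 CPM against 57.5 CPM. In 3 classes of coding length, the median log2 fold change was 0.605 for the shortest, 0.482 for the middle and 0.373 for the longest genes, whose median levels were 16.1, 28.6 and 43.9 CPM. Members of 1 exon had a median of 0.583 (71 genes) and those of several exons 0.465 (461 genes). The annotated span of 257 members (48.3%) overlaps another gene, and reads of such pairs may be shared, as strand use was not given. Members that overlap had a median of 0.482 and those that do not 0.472.

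CDXX against T2L, at the same stated age, gave much the same picture. Here 299 members were higher and 5 lower, beside 18.0% and 19.6% of all genes (37.6% called), and the median was 0.521, or 1.44-fold. Within batches it was 0.512, 0.51 and 0.453. Named X genes had a median of 0.537, and genes off X and 2L one of 0.005. The libraries of CDXX are shared with CDXX against CDXY, so the results are not independent. The largest called rises under the naming rule were in CG2680 (2.49), CG15784 (2.45) and CG9114 (2.01). CG9114 had 60.1, 42.6 and 60.0 CPM in CDXX, against 17.6, 12.8 and 9.90 CPM in T2L. The call of CG2680 (adjusted p = 0.0222) was lost without T2L batch 4 (0.0541), 5 (0.0586) or 6 (0.0761) or CDXX batch 6 (0.0876). Falls were led by CG15046 (−3.88), CG40485 (−3.58) and CG17778 (−0.95). CG40485, near the proximal end, had 1.41, 2.11 and 0.377 CPM in CDXX against 17.8, 13.2 and 15.4 CPM in T2L. T2L was its highest group, as the means were 1.93 CPM in CDXY, 2.9 CPM in Oregon and 5.84 CPM in C2L. Its CDXX against CDXY difference was not called (adjusted p = 0.554). CG17778 had 6.87, 5.66 and 5.65 CPM in CDXX against 13.2, 10.5 and 11.5 CPM in T2L. In neither did the groups overlap.

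Where X stayed at 2 copies the members moved little. In T2L against C2L, which have the ages of CDXX and CDXY, 20 members were higher and 19 lower, beside 11.6% and 4.05% of all genes (15.7% called), with a median of −0.052 against −0.102 in named X genes. The share over all genes includes 2L, which has 3 copies in T2L. Of genes off X and 2L, 3.24% were higher and 4.89% lower, near the 3.76% and 3.57% of the members. The 39 calls among members came to 20 without T2L batch 4 and 18 without C2L batch 6. The test of the difference between the changes in CDXX against CDXY and in T2L against C2L, which share no library, called 215 members higher and 3 lower, beside 10.5% and 11.8% of all genes (22.3% called), with a median difference of 0.528. Member by member the changes still went together in part, with rho of 0.458 over 532 genes. The comparisons have the batches, the ages and the genes' levels in common.

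Some members rose in both groups dissected at 8 days. CG15201 (FBgn0030272, X, 11144120 to 11144809) had 65.7, 54.8 and 130 CPM in CDXX and 52.7, 20.9 and 47.6 CPM in T2L, against 17.1, 14.1 and 12.7 CPM in CDXY and 13.7, 10.2 and 8.21 CPM in C2L. All libraries of 8 days were above all of 5 days, and T2L against C2L gave 1.92 ± 0.40 (adjusted p = 0.00918). Its neighbour CG15202, at 11142541 to 11143755, had 29.1, 21.3 and 17.3 CPM in CDXX and 17.9, 13.2 and 8.55 CPM in T2L, against 7.73, 4.95 and 6.04 CPM in CDXY and 6.66, 3.01 and 2.28 CPM in C2L. T2L against C2L gave 1.73 (adjusted p = 0.0104), and 0.0595 in a fit of those groups alone. CG5273 had 231, 148 and 84.6 CPM in T2L against 74.9, 49.2 and 37.8 CPM in C2L (1.52, adjusted p = 0.0171), a call lost in that fit (0.062) and without T2L batch 4 (0.0749), C2L batch 5 (0.0589) or C2L batch 6 (0.0765). For these 3 genes the difference between the changes was 0.60, 0.13 and −0.17 and was not called (adjusted p = 0.474, 0.886 and 0.833).

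Falls in T2L against C2L were led by CG4872, CG32641 and CG12702. CG4872 (FBgn0030799, X, 16881347 to 16882790) had 2.43, 3.30 and 2.84 CPM in T2L, against 7.73, 8.53 and 9.41 CPM in C2L, and 4.66 to 8.91 CPM in the other libraries, so T2L alone was low (−1.58 ± 0.22, adjusted p = 0.001). CG32641 had 37.9, 42.8 and 43.6 CPM in T2L, against 68.0, 57.3 and 72.9 CPM in C2L, and 20.5 to 39.4 CPM elsewhere, so C2L was high. CG12702 had 31.2, 23.4 and 28.8 CPM in T2L against 44.7, 33.6 and 50.7 CPM in C2L (−0.63, adjusted p = 0.0242). That call was lost in a fit of those groups alone (0.0569) and without C2L batch 4 (0.059), T2L batch 5 (0.0949), C2L batch 6 (0.109) or T2L batch 6 (0.0505).

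The stocks with 2 copies of X differed in few members, but in a larger share of them than of all genes. CDXY against Oregon called 4 members higher (0.752%) and 8 lower (1.5%), beside 0.323% and 0.534% of all genes (0.857% called). The members' median was −0.008. Of named X genes 0.777% were higher and 1.75% lower, and of genes off X 0.217% and 0.285%. All CDXY libraries lay above all Oregon libraries for 50 members and below them for 68, where 7.27% and 8.96% of all genes did so. CDXY against C2L, both at 5 days, called 14 higher (2.63%) and 9 lower (1.69%), beside 1.34% and 1.4% of all genes (2.74% called). The median there was −0.018. The comparisons share the CDXY libraries. CG12106 (FBgn0030100, X, 9193898 to 9195333) was the largest called rise of at least 5 CPM in both, with 18.9, 14.2 and 14.2 CPM in CDXX and 15.4, 17.4 and 15.8 CPM in CDXY, against 8.32, 7.57 and 7.49 CPM in C2L and 8.82, 9.43 and 9.82 CPM in Oregon. It was called against C2L (1.06, adjusted p = 0.000249) and against Oregon (0.79, adjusted p = 0.00536), the call against Oregon being lost in a fit of those groups alone (0.0966). CG15784 was lower in CDXY than in Oregon by 1.38 ± 0.28 on the log2 scale (adjusted p = 0.0395), which was lost in that fit (0.134) and without any CDXY library (0.123, 0.195 and 0.123 for batches 4, 5 and 6) or Oregon batch 5 (0.122) or 6 (0.0939). CG3038 and CG17778 were lower in CDXY than in Oregon by 1.16 and 1.07, and both calls were lost in that fit (0.124 each).

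Against C2L, CG1924 stood at 0.90 and CG1628 at 0.90 in CDXY. CG1628 had 7.17, 6.91 and 5.26 CPM in CDXY against 3.81, 3.05 and 3.52 CPM in C2L (adjusted p = 0.00758), and 0.131 in a fit of those groups alone. CG1924 (adjusted p = 0.0161) lost its call in that fit (0.111) and without CDXY batch 4 (0.0675) or 6 (0.0608) or C2L batch 4 (0.0865) or 6 (0.0784). The falls were CG32641 (−1.49), CG32640 (−1.38) and CG3038 (−1.09), of which CG3038 was not called in that fit (0.0662). CG32640 had 24.3, 18.7 and 23.2 CPM in CDXY against 58.9, 49.5 and 63.3 CPM in C2L. It lies close to CG32641, their coding lengths are equal at 396 bases, and their counts may be shared.

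A few members of low level were nearly silent in some stocks, and are named after their values were seen. CG14204, at 19583617 to 19587057, had 2.79, 2.01 and 2.00 CPM in CDXX against 0.0, 0.0409 and 0.0411 CPM in CDXY, 4.62, 3.49 and 2.03 CPM in T2L against 0.037, 0.0 and 0.16 CPM in C2L, and 1.31, 1.69 and 1.73 CPM in Oregon. CG32572, at 16721183 to 16726948, ran alike, with 2.31 to 6.76 CPM in the CDXX, T2L and Oregon libraries, against 0.12, 0.123 and 0.246 CPM in CDXY and 0.037, 0.0386 and 0.12 CPM in C2L. Both were called higher in CDXX than in CDXY and higher in T2L than in C2L. CG4991, at 17091854 to 17104562, was instead high where C(1)DX was carried, with 14.4, 12.4 and 14.5 CPM in CDXX and 9.37, 9.37 and 2.38 CPM in CDXY, against 0.12 to 1.12 CPM in the T2L, C2L and Oregon libraries. The log2 fold change was 5.26 ± 0.57 in CDXY against C2L (adjusted p = 0.000193) and 4.83 ± 0.50 in CDXX against T2L (adjusted p = 4.66e-05).

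Of 14 genes of dosage compensation and sex determination, 13 were in the table, and 3 were higher and 3 lower in CDXX than in CDXY, a share each way near that of all genes (23.1% higher and 20.8% lower). The roX1 RNA, a part of the male complex, had 443 ± 167 CPM in CDXX and 195 ± 64.5 CPM in CDXY (SD, n = 3 each), a log2 fold change of 1.18 (adjusted p = 0.02). The acetyltransferase gene mof, itself on X, was higher by 0.42, and fru, a sex determination gene, by 2.08. The helicase gene mle (−0.51), Clamp (−0.44), which binds X and recruits the complex, and msl-1 (−0.23) were lower. For msl-2 the change was −0.16 and for Sxl 0.21, and neither was called. Against T2L, 4 of the 13 were higher in CDXX and 4 lower. There Sxl was at 0.52 (edgeR adjusted p = 0.00475) and msl-2 at −0.745 (adjusted p = 0.000128). The gene msl-2 lies on 2L, which has 3 copies in T2L.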

How the data were processed

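Polyadenylated RNA of larval brains was sequenced in 15 libraries. The deposited table gives raw counts of reads per gene, not normalized by the authors. The submitters' processing notes name Trim Galore, STAR 2.7.10a, featureCounts and the build dm6. How strand, reads matching several places and low genes were handled is not given in the sources used here, so overlapping genes and near-identical copies are uncertain. Chromosomes, coordinates and symbols came from Ensembl release 115, in dm6 coordinates, by gene identifier (8939 of 8990 matched, 51 not). Sequences were not used here.

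Groups came from genotype labels and replicates from batch labels. The squared difference between replicates was 55 to 198 times the sampling variance, and each library was kept as a sample of its own. Tests used edgeR 4.0.16 (R 4.3.3): TMM scaling, filterByExpr (9 genes removed) and the robust quasi-likelihood F test on 1 mean per group over all 15 libraries, without covariates. Two-sided p-values were adjusted over 8981 genes (Benjamini-Hochberg) and called under 0.05. The biological coefficient of variation was 24.9%. The 3:2 test put an offset of log(3/2) on the CDXX libraries. CPM values use TMM-scaled library sizes. Within-batch ratios add 0.5 CPM. The script was tested on simulated counts. Replicates were collected on separate days, and p-values thus reflect variation among days and brain pools.

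The batch labels stand for days and pair libraries of different groups. Libraries of the same batch deviated from their group means together in part (median r 0.129, with 16 of 30 pairs above 0.1). Those of other batches had a median r of −0.066 (17 of 60). Deviations from a group mean cancel within the group. The value for other batches thus largely follows from that for the same batch and adds no support. The block was kept as an alternative, beside DESeq2 1.42.0, other scaling and filters, and leaving out libraries.

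The members, lists and tests were chosen with earlier results of these data known. Named genes are the 8 largest called rises and falls in CDXX against CDXY with at least 5 CPM and no overlap, the 6 of highest CPM, 4 called ones within 0.05 of the 3:2 ratio and 4 level ones of at least 20 CPM with the smallest standard errors, 3 each way by adjusted p against the 3:2 ratio, 3 each way in each other comparison, and those at the ends of X.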

Additional observations from a re-analysis of the deposited data

Results flagged for a closer look

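The change in CDXX against CDXY differed from the change in T2L against C2L, by the edgeR quasi-likelihood test of the difference itself, in 218 uncharacterised X genes, 215 higher and 3 lower. Among those of at least 5 CPM, CG15784 had the largest positive difference, 3.172 on the log2 scale (adjusted p = 0.000581), from 4.09 in CDXX against CDXY and 0.92 in T2L against C2L.

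The neighbours CG32706 and CG6999 followed, with differences of 2.167 (adjusted p = 0.00362) and 2.078 (adjusted p = 0.0065). CG32706 had 42.7, 36.1 and 30.7 CPM in CDXX against 10.5, 11.5 and 6.12 CPM in CDXY, and CG6999 had 41.1, 34.7 and 29.2 CPM against 10.7, 10.8 and 5.50 CPM. Their counts run so closely together that reads may be shared between them.

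The 3 negative differences were those of CG32512, at −1.518 (adjusted p = 0.0198), CG1924, at −1.017 (adjusted p = 0.0134), and CG9903, at −3.16 (adjusted p = 0.00337). CG9903 lies below 5 CPM and was named after its values were seen, with 0.037, 0.0772 and 0.12 CPM in C2L. CG32512 had 16.4, 26.4 and 21.3 CPM in CDXX against 54.5, 49.0 and 27.9 CPM in CDXY, and 33.9, 36.4 and 48.8 CPM in T2L against 27.7, 34.2 and 23.3 CPM in C2L. Its difference was not called without C2L batch 6 (0.0517) or T2L batch 6 (0.0539). CG1924 had 3.96, 5.80 and 4.22 CPM in CDXX against 7.29, 6.05 and 7.15 CPM in CDXY, and 4.99, 5.16 and 5.04 CPM in T2L against 3.14, 4.28 and 3.56 CPM in C2L.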

How the results depend on the processing

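Of 149 alternatives for counts and medians, 115 kept the result, and of 895 for named genes 832 did, 58 lost the call, 5 gained it (all CG3168 in CDXX against CDXY) and 0 changed direction. Where a cause is not given it was not tested. The batch block moved no count by over 1.5 times (CDXX against CDXY 313 higher and 15 lower, T2L against C2L 28 and 25) and among falls in CDXX ended the calls of CG12539 and CG3823. Without the 257 members that overlap another gene fewer could be called by construction: 168 in CDXX against CDXY (4 lower), 130 off the 3:2 ratio, 159 in CDXX against T2L, 21 in T2L against C2L, 6 in CDXY against Oregon, 12 in CDXY against C2L and 115 in the difference. A fit of only the groups compared called 25 in T2L against C2L, 3 in CDXY against Oregon and 12 in CDXY against C2L. DESeq2 called 65 in T2L against C2L and 27 in CDXY against Oregon, and 18 lower in CDXX against CDXY. Leaving out 1 library at a time gave 268 to 310 calls in CDXX against CDXY (4 to 19 lower), 192 to 239 off the 3:2 ratio, 256 to 299 in CDXX against T2L, 18 to 43 in T2L against C2L, 10 to 12 in CDXY against Oregon, 17 to 23 in CDXY against C2L, 182 to 223 in the difference, and a median of 0.46 to 0.492. With scaling by genes off X and 2L this median was 0.543. The lowest bin along X was at 0.191 in batch 5. The highest was at 0.815 in 1 Mb bins and at 0.585, 0.587 and 0.527 in the batches. The lowest CPM class was at 0.77 with 10 classes (the next at 0.297) and at 0.497, 0.499 and 0.338 in the batches, and the highest at 0.225 with 10 classes, 0.438 per kb and 0.368 in batch 4. At low CPM the standard errors limit what can be called.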

Other observations

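CG33502, CG32857 and CG32500, named after their values were seen, lie in a row between 21609357 and 21623750, and all have 849 coding bases. Their counts, 832 to 2203 per library, differed from one another by at most 6 in any library. Each stood at 82.5, about 61.6 and about 83 CPM in CDXX, against 42.0, about 35.2 and about 34.2 CPM in CDXY, with a log2 fold change of 1.03 ± 0.13 (SE, edgeR adjusted p = 0.000202 each). Reads may have been split or repeated among them, so they may be 1 measurement.

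CG12106 and CG12118 overlap on opposite strands at 9194750 to 9195333 and differed between stocks in opposite directions. In CDXY against Oregon CG12106 was at 0.79 and CG12118 at −0.69 (edgeR adjusted p = 0.0233). CG12118 had 11.3, 9.59 and 12.6 CPM in CDXX and 5.64, 5.81 and 5.01 CPM in CDXY, against 8.55, 8.53 and 9.50 CPM in Oregon. CDXX was above CDXY by 1.03 (adjusted p = 0.000201) and above T2L by 0.44 (adjusted p = 0.0176). CG12118 was named after its values were seen.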
